A study of Mus musculus with 15 samples.

Results

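Valve interstitial cells were picked out of Drop-seq profiles of whole embryonic mouse hearts at E14.5. In this method each cell meets a barcoded bead in a droplet, and the bead binds its polyadenylated RNA, each molecule being counted once through a unique molecular identifier (UMI). The members were chosen by their UMI counts of named genes. A barcode needed at least 300 detected genes, under 2% of its UMIs from Actc1, Tnnt2, Tnni1, Tnnc1, Myl4, Myl7 and Ttn, fewer than 2 UMIs summed over Pecam1, Cdh5, Emcn and Egfl7, and fewer than 2 summed over C1qa, C1qb and C1qc. These gates are aimed at cardiomyocytes, endothelial cells and macrophages, and remove only barcodes at or above the limits. A member then needed a valve sum of at least 2 UMIs over Cthrc1, Papss2, Meox1, Col9a1 and Col9a3. This valve sum had to exceed the fibroblast sum over Tcf21, Lsp1, Spon2, Slc38a5, Col14a1 and Ch25h. Of 55152 deposited barcodes, 50899 had 300 genes, and 4077 of these (8.01%) were members. Fibroblasts, used as the closest other mesenchymal class, were the 6215 cells that passed the same gates with the sums the other way round (fibroblast sum at least 2 and above the valve sum).

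All embryos had the C57BL6/N background. The 7 wild-type (WT) libraries held 1839 members and the 8 libraries from embryos homozygous for a knockout (KO) of Adamts19 held 2238, with 111 to 421 members per library. The tm4a allele was in KO replicates 1 to 4, of which replicate 1 was from litter 5 and the rest from litter 6, and tm4b was in replicates 5 to 8, all from litter 7. WT replicates 1 and 2 came from litter 1, replicates 3 and 4 from litter 2, replicate 5 from litter 3, and replicates 6 and 7 from litter 4. No litter held both genotypes. A single flow cell carried WT replicate 5 together with all 8 KO libraries, while the remaining WT libraries ran on different ones, per the labels. How many embryos went into a library, and which part of Adamts19 was deleted, is not stated in the labels, so p-values between genotypes measure the spread between these libraries. The table also counts a feature named LacZ, the reporter gene for beta-galactosidase.

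Valve interstitial cells are the mesenchymal cells inside the leaflets of the heart valves. In the embryo they arise mainly from endocardial cells that undergo an epithelial-to-mesenchymal transition in the cardiac cushions, and they lay down a layered matrix of collagens, proteoglycans and elastic fibres that resembles cartilage in part of its makeup. ADAMTS proteases are secreted enzymes of this matrix; Adamts19 encodes a member whose substrates are not established, and loss of its human counterpart has been linked to heart valve disease.

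Library totals ran from 5477109 to 11340443 UMIs, and members contributed 223907 to 889363 UMIs per library. The median depth was 1818 UMIs in members, 2359 in fibroblasts, 1930 in endothelial cells and 1533 in macrophages; endothelial cells and macrophages served as a reference for RNA free in the droplets. Among member barcodes without an unread base, 3990 in number, 0 occurred in more than 1 library. WT replicate 3 had the deepest members (a median of 2690.5 UMIs) and KO replicate 3 the shallowest (1252.5).

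The label was checked against Postn and Sox9, valve mesenchyme genes that the rule did not read. Postn, the matricellular protein periostin, lay between 2678 and 4779 counts scaled to a common library total (CPM) in members and between 860.1 and 2149 CPM in fibroblasts over the 15 libraries. Sox9, the transcription factor of cartilage and cushion mesenchyme, lay between 198.4 and 520.4 CPM in members and between 68.4 and 145.9 CPM in fibroblasts. Neither gene's ranges overlapped, and both were higher in members in 15 of 15 libraries. Of the fibroblast genes outside the rule, Pdgfra was at a like level in members and fibroblasts (168 ± 48.0 and 156 ± 26.7 CPM, SD, n = 15). Dpt, which encodes dermatopontin, was higher in members (580 ± 147 against 192 ± 72.0 CPM), so it did not mark fibroblasts in these data.

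The rule itself set the levels of its genes, which are given as a description. Cthrc1 stood at 1103 ± 224 CPM in members and 59.2 ± 17.2 CPM in fibroblasts (SD, n = 15 libraries), Col9a1 at 473 ± 85.8 and 11.6 ± 5.63 CPM, and Papss2, a sulphate donor synthase for proteoglycans, at 337 ± 50.6 and 16.9 ± 4.02 CPM. Of the members, 926 had a valve sum of exactly 2 and 3151 a sum of 3 or more, 2732 had no UMI of the fibroblast genes, and 266 had UMIs of all 5 valve genes. Just outside the rule stood 1154 cells with a valve sum of 1 and no fibroblast UMI. Postn was at 2465 ± 1060 CPM in those cells, 2833 CPM in members with a sum of 2, and 4008 CPM in members with a sum of 5 to 9. Acta2, smooth muscle actin, ran the other way, at 1138 CPM just outside, 1003 CPM at a sum of 2 and 404 CPM at 5 to 9. WT cells held Adamts19 at 64.0 ± 28.9 CPM just outside and at 94.7 CPM with a sum of 2.

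Beyond the rule genes, the members had a matrix and signalling profile of their own against fibroblasts. Because the rule chose both classes, no test was made: a gene was counted when it differed in the same direction in 15 of 15 libraries by a mean of at least 1 on the log2(CPM + 10) scale. Of 9622 genes outside the rule, 213 (2.21%) were counted as higher in members and 187 (1.94%) as lower, with a median over all genes of 0.05. Hapln1, a link protein that ties proteoglycans to hyaluronan, stood at 293 ± 107 CPM in members and 17.5 ± 8.35 in fibroblasts (log2 difference 3.45 ± 0.42). Vcan, the proteoglycan versican, stood at 1615 ± 266 and 268 ± 66.3 CPM (2.56 ± 0.21). The cartilage collagen Col2a1 (105 against 2.90 CPM) and the matrilin Matn4 (127 against 6.35 CPM) had log2 differences of 3.03 each.

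Transcription factors and signalling genes stood out in the same comparison. Lef1, a nuclear effector of Wnt signalling, was at 144 ± 30.1 CPM in members and 4.51 ± 3.18 in fibroblasts (3.42 ± 0.46). Msx1, a homeobox factor of the cushions, was at 114 against 3.19 CPM (3.12 ± 0.63), Twist1 at 148 against 41.5 CPM (1.56 ± 0.46) and Scx, the tendon factor scleraxis, at 61.7 against 5.54 CPM (2.15 ± 0.53). Among secreted signals, Wnt16 was at 85.3 against 2.68 CPM (2.83), the Wnt agonist Rspo3 at 217 against 27.8 CPM (2.58), Dkk3 at 801 against 98.2 CPM (2.95), Bmp2 at 166 against 18.2 CPM (2.51) and the BMP regulator Bmper at 115 ± 23.3 CPM (2.59 above fibroblasts). Npy, which encodes neuropeptide Y, was at 119 ± 61.3 CPM in members and 2.27 ± 2.44 CPM in fibroblasts (3.27 ± 0.64).

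By gene group, members were higher for 10 of 19 measured genes of valve proteoglycans and their synthesis (median log2 difference 1.02) and lower for 1, Ogn. Cartilage-type matrix genes were higher for 7 of 13 and lower for 1, Matn2 (median 1.12). Elastic fibre genes were higher for 5 of 20 (Fbln2, Fbln5, Fbn2, Ltbp2 and Ltbp3) and lower for 0. Among fibrillar and network collagens, a list without the cartilage collagens, 1 of 19 was higher (Col18a1) and 5 were lower (median -0.66), and Col1a1, Col1a2 and Col3a1 were lower in members in 15 of 15 libraries by less than 1. Of 33 transcription factors of valve mesenchyme, 11 were higher and 1 lower (median 0.64). Of 22 Wnt pathway genes, a list that does not hold Wnt16, 7 were higher and 1 lower, Rspo1 (median 0.46). Of 15 other ADAMTS family genes, Adamts20 (19.1 against 3.44 CPM) and Adamtsl2 (24.8 against 2.43 CPM) were higher. Adamts19 itself was at 75.9 against 5.35 CPM over all 15 libraries (2.28 ± 0.73).

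**Figure D1:**
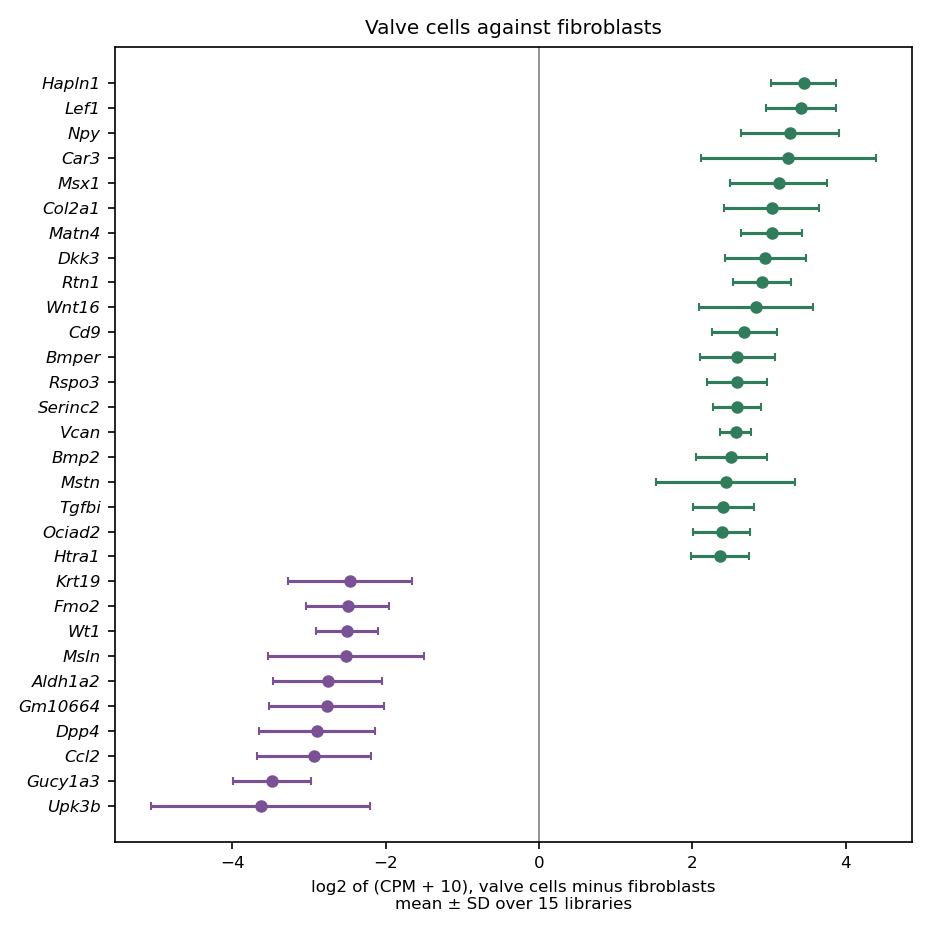
Difference between member cells and fibroblasts for 30 genes outside the rule, on the log2(CPM + 10) scale; points are means over 15 libraries and bars are SD. Hapln1 (3.45) and Lef1 (3.42) lie at the high end, and the epicardial gene Upk3b (-3.63) at the low end.

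Markers of the epicardium, the mesothelial cover of the heart, were lower in members. Upk3b stood at 24.1 ± 30.3 CPM in members and 318 ± 124 CPM in fibroblasts (-3.63 ± 1.43), the retinoic acid synthase Aldh1a2 at 7.26 against 104 CPM (-2.76) and Wt1 at 6.35 against 81.1 CPM (-2.50). Of 12 epicardial markers measured outside the rule, 11 were lower and 0 higher in members (median -2.22). Gucy1a3, a subunit of the nitric oxide receptor guanylate cyclase, was at 38.8 against 510 CPM (-3.48). Epicardial and fibroblast cells both fall in the comparison class, so these differences describe the class as the rule drew it.

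The members were not uniform. The 2716 members with a UMI of Col9a1 or Col9a3 were set against the 1361 chosen by Cthrc1, Papss2 and Meox1 alone, again without a test. Col2a1 was at 133 ± 79.6 CPM in the first and 36.4 CPM in the second (SD, n = 15), Matn4 at 153 and 64.3 CPM, Sox6, a partner of Sox9 in cartilage, at 64.9 and 32.6 CPM, and Angpt1, the ligand angiopoietin 1, at 154 and 82.8 CPM, each higher in 15 of 15 libraries. The chemokine Cxcl12 was at 191 and 421 CPM and Tm4sf1 at 139 and 241 CPM, both lower in 15 of 15. Acta2 (371 and 944 CPM) and the proteoglycan Ogn (47.8 and 153 CPM) were lower in 14 of 15 libraries, and Adamts19 (85.3 and 55.3 CPM) was higher in 14 of 15.

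Smooth muscle-type transcripts ran through the class. A UMI of Acta2, Tagln, Myl9, Cnn1 or Myh11 was present in 2042 of 4077 members (50.1%), from 34.2% in KO replicate 4 to 64.8% in KO replicate 1. Members with such a UMI were deeper (a median of 2383.5 UMIs) than those without (1379). The summed level of 13 mural and smooth muscle markers was 1218 to 1821 CPM in WT and 732 to 2060 CPM in KO members, with only Higd1b at 0. In fibroblasts it was 1434 to 2579 and 1007 to 2059 CPM.

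Adamts19 and LacZ were first read in every library as a check of the genotype labels. Adamts19 stood at 68.8, 135 and 164 CPM (lowest, median and highest) in the members of the 7 WT libraries and at 20.3, 32.9 and 58.1 CPM in those of the 8 KO libraries. The groups did not overlap. LacZ had 0 UMIs in all WT members and stood at 22.3, 75.1 and 149.6 CPM in the KO libraries, the lowest of them KO replicate 4. Both readings went with the labels in all 15 libraries. Sequencing from the 3′ end cannot tell a transcript that lacks the deleted part from an intact one, so remaining Adamts19 UMIs in KO members do not say what was transcribed.

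In edgeR's quasi-likelihood test Adamts19 fell by 1.90 on the log2 scale in KO members (SE 0.21, Benjamini-Hochberg adjusted p 1.47e-05). LacZ was at least 109-fold higher in KO than in WT members, the bound being 3 counts over the WT group (0.727 CPM) against 78.9 CPM in the pooled KO members. With flow cell as a covariate, where WT replicate 5 alone stands for WT in the shared flow cell, the change of Adamts19 was -2.05; that single library is assumed to vary like the others. Allele by allele it was -1.63 for tm4a and -2.10 for tm4b, and the difference between the alleles did not pass the test (-0.47, SE 0.32, edgeR adjusted p 0.542).

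**Figure D2:**
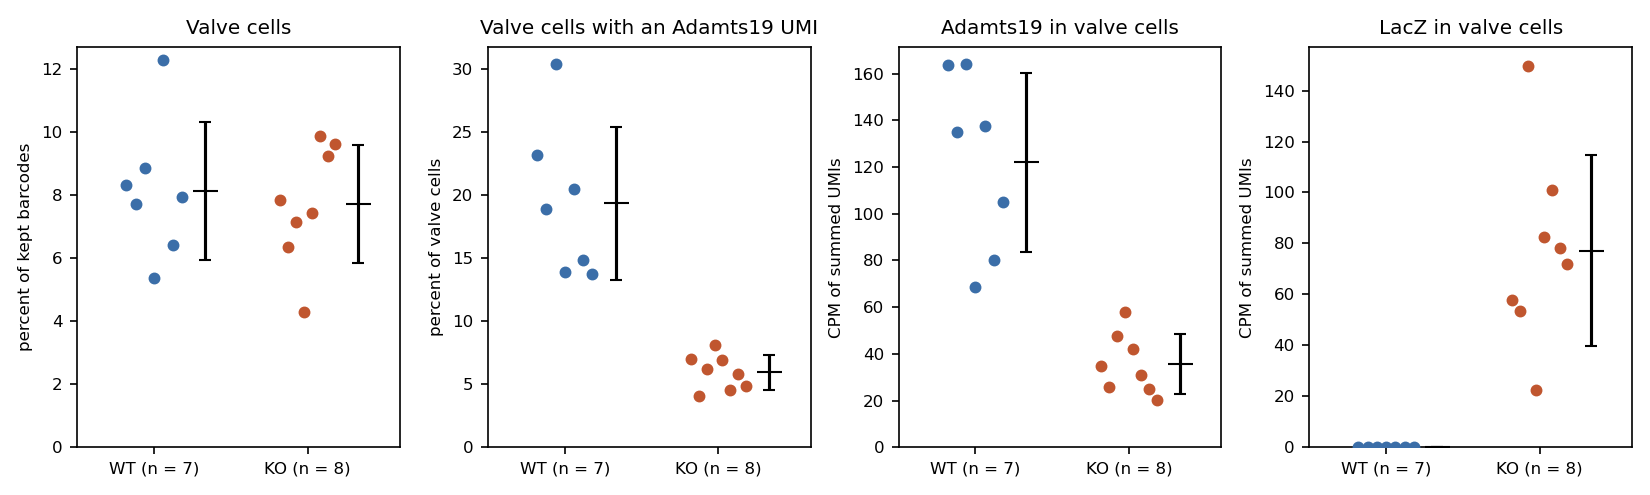
Member cells as a percent of kept cells, percent of members with an Adamts19 UMI, Adamts19 CPM and LacZ CPM, 1 point per library for WT (n = 7) and KO (n = 8) with mean ± SD. The shares of members overlap (5.37 to 12.3% and 4.29 to 9.88%), while Adamts19 and LacZ separate the genotypes without overlap.

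Counted by cell, 13.8, 18.9 and 30.4% of WT members (lowest, median and highest library) and 4.09, 6.03 and 8.11% of KO members had an Adamts19 UMI. The means were 19.3 ± 6.04% and 5.95 ± 1.39% (SD, n = 7 and 8), and a two-sided exact permutation test over libraries gave p = 0.000155, the smallest that 7 against 8 libraries allow (0.000466 adjusted over the 3 shares tested). Within the shared flow cell, WT replicate 5 had 20.4% and the KO libraries at most 8.11%. With every cell thinned to 1000 UMIs the means were 10.4 ± 2.03% and 3.07 ± 1.36%. With library percentages averaged by litter, 4 WT against 3 KO, the exact permutation p was 0.0286, the smallest that 35 assignments allow.

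Among members, fibroblasts, endothelial cells and macrophages, the reporter and the gene were each detected most often in members. Other cells were not read in this comparison. An Adamts19 UMI was present in 372 of 1839 WT members (20.2%, 95% Clopper-Pearson interval 18.4 to 22.1%), in 2.22% of WT fibroblasts, in 0.621% of WT endothelial cells and in 1 of 329 WT macrophages (0.304%). LacZ was present in 273 of 2238 KO members (12.2%, 10.9 to 13.6%), in 3.25% of KO fibroblasts, in 0.494% of KO endothelial cells and in 0 of 438 KO macrophages. A limit of 3 cells allows a share of up to 0.685% of those macrophages with a LacZ UMI. In WT members LacZ was seen in 0 of 1839 cells, for which the same limit of 3 cells allows up to 0.163% with a UMI. These intervals and limits cover counting error only and refer to cells with a UMI, not to cells that express the gene. The fibroblast shares lay above those of both reference classes.

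In KO members, 43 cells had UMIs of both Adamts19 and LacZ. LacZ was present in 33.9% of the 127 members with an Adamts19 UMI and in 10.9% of the others. The share was higher among Adamts19-positive members in 7 of 8 libraries, the exception being KO replicate 3 (15.4 against 16.9%). Counts per library were small, with 1 of 11 Adamts19-positive members in KO replicate 2 and 2 of 9 in KO replicate 4. Cells were not thinned here, and the part of depth in this overlap was not tested.

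The share of valve interstitial cells among kept cells did not separate the genotypes. It was 5.37, 7.94 and 12.3% in WT and 4.29, 7.65 and 9.88% in KO libraries (lowest, median and highest), and the ranges overlapped. The means were 8.14 ± 2.19% and 7.73 ± 1.88%, a difference of -0.41 percentage points (two-sided exact permutation p = 0.709). The difference changed sign without WT replicate 5 (0.29 points) and without KO replicate 4 (0.083 points). Members with at least 2 UMIs of mitotic genes made up 33.1 ± 12.5% in WT and 27.2 ± 6.32% in KO (exact permutation p = 0.271), again with overlapping ranges (18.6 to 51.4% and 19.2 to 37.4%). The difference of -5.93 points was -0.89 with cells thinned to 1000 UMIs (24.9 and 24.0%), -3.12 without WT replicate 3, and -2.89 without WT replicate 4 and -2.88 by litter.

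Members with an Adamts19 UMI were then compared with members without one inside each WT library, UMIs being summed per library and group. The positives numbered 372, with 20 to 90 per library, against 1467 negatives. They carried more Lef1, Angpt1, Hapln1 and Wnt16 and less Acta2, Fbln5, Cxcl12 and Ogn. With edgeR's quasi-likelihood test and library as a block, 59 of 5427 genes (1.09%) were higher and 91 (1.68%) lower in positives, with a median over all genes of -0.004. A cell without a UMI may still express the gene, and positives were deeper in 7 of 7 libraries (medians of 1576.5 to 3130 UMIs against 1390 to 2483).

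LacZ gave a second reading of the same kind in KO libraries, which share no cell with the WT set. KO replicate 4, with 4 LacZ-positive members, was left out of this fit by a minimum of 5, leaving 269 positives and 1858 negatives in 7 libraries. By edgeR 33 of 4226 genes (0.781%) were higher and 39 (0.923%) lower in LacZ-positive members, which were again deeper in 7 of 7 libraries (medians of 1525 to 2644 UMIs against 1210 to 2157). Of the 150 genes called in WT, 136 were tested in KO, 124 of them had the same direction and 47 were called in both. The 47 are 31.3% of the WT calls and 65.3% of the 72 KO calls, 20 of them higher and 27 lower. Of the 72 KO calls, 69 had the same direction in WT, the exceptions being Hba-a1, Hbb-y and Mki67. Haemoglobin transcripts, of red blood cells, moved with the KO set: 4 of 4 tested were lower in LacZ-positive members (median -1.87), Hba-a1 by -2.70, whereas in WT 1 of 5 was called, Hbb-y, as higher (1.23). Their part in the other calls was not tested.

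**Figure D3:**
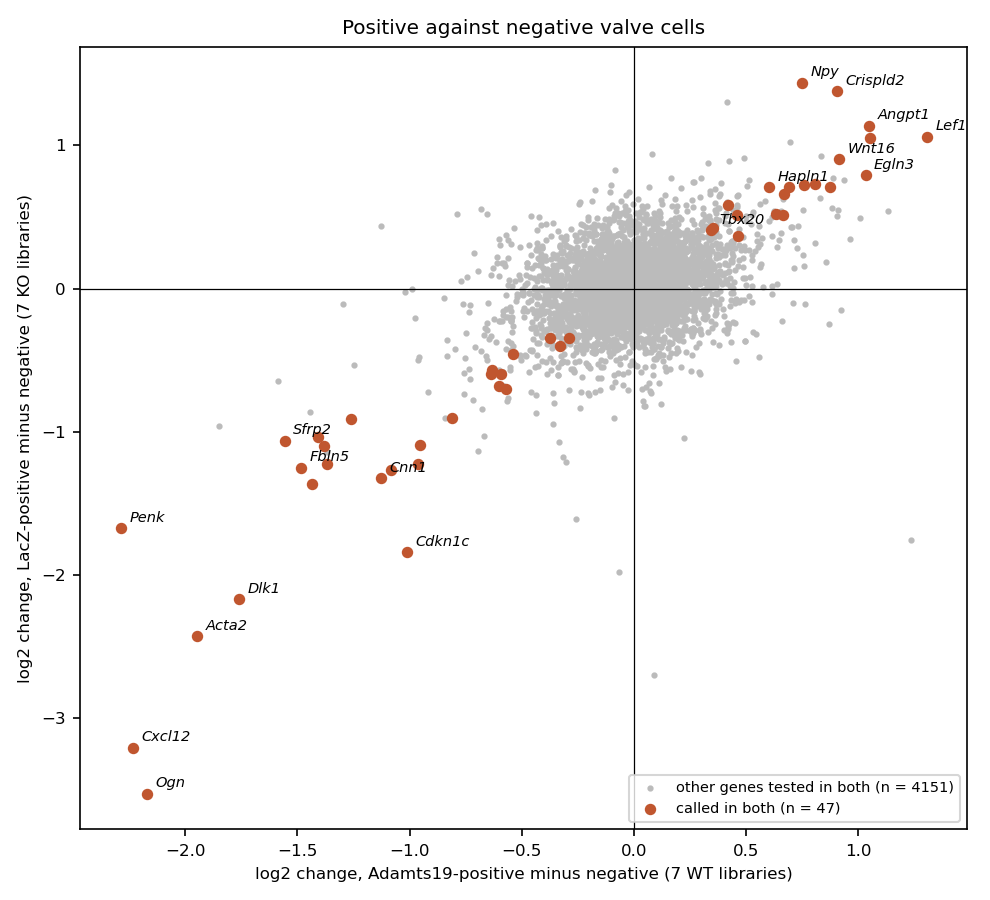
Log2 difference of Adamts19-positive from negative members in WT (x axis) against that of LacZ-positive from negative members in KO (y axis), 1 point per gene tested in both. The 47 genes called in both are coloured. Lef1 (1.31 and 1.06) lies farthest right and Npy (0.75 and 1.44) highest, with Penk (-2.29 and -1.67) farthest left and Ogn (-2.17 and -3.53) lowest.

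Lef1 and Tbx20 were among the transcription factors higher in positive members. Lef1 stood at 185, 265 and 420 CPM scaled by TMM, as are all levels in this comparison (lowest, median and highest of 7 libraries), in Adamts19-positive and at 92.7, 119 and 148 CPM in negative WT members, without overlap (log2 change 1.31, SE 0.14, edgeR adjusted p 2.42e-09). In KO it stood at 69.9, 319 and 514 CPM in LacZ-positive and at 103, 153 and 216 CPM in negative members, and here the ranges overlapped (1.06, SE 0.20, edgeR adjusted p 0.00147). Tbx20, a T-box factor of the endocardial cushions, was higher in both sets (0.34 in WT and 0.41 in KO). Wnt16 was higher by 0.91 and 0.90 and Rspo3 by 0.67 and 0.66, while the secreted Wnt modulators Sfrp1 (-0.63 and -0.57) and Sfrp2 (-1.56 and -1.06) were lower. The list of Wnt pathway genes, which does not hold Wnt16, had 2 higher and 2 lower of 16 tested in WT (median 0.07). In KO it had 2 higher and 2 lower of 11 (median -0.13). The higher ones were Rspo3 and Lef1 and the lower ones Sfrp1 and Sfrp2 in both sets. Of the valve mesenchyme transcription factors, 4 of 26 were higher and 0 lower in the WT set (Tbx20, Msx1, Lef1 and Id1), and 2 of 26 were higher in the KO set (Tbx20 and Lef1).

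Proteoglycan genes changed in both directions, and the elastic fibre genes called were all lower. Hapln1 stood at 189.7, 363 and 762 CPM in Adamts19-positive and 188, 273 and 406 CPM in negative WT members (0.60, SE 0.11, edgeR adjusted p 0.000326), higher in 7 of 7 libraries although the ranges overlapped. In KO it stood at 275, 415 and 630.4 CPM in LacZ-positive and 179, 277 and 449 CPM in negative members, higher in 5 of 7 libraries (0.71, SE 0.16, edgeR adjusted p 0.00863), and with thinned cells the KO change was 0.22 (edgeR adjusted p 0.92). KO replicates 2 and 3, both tm4a, were lower (351 against 371 and 275 against 370 CPM). KO replicate 1, also tm4a, was close (475 against 449 CPM), and all tm4b libraries were higher. Dcn (decorin) rose by 0.42 and 0.59 and Lum (lumican) by 0.46 and 0.37 in the WT and KO sets. Vcan rose in WT (0.42, edgeR adjusted p 9.86e-05) and had 0.30 in KO (edgeR adjusted p 0.16), and this difference between the sets was not tested. Of the proteoglycan genes, 5 of 17 were higher and 4 lower in WT (Ogn, Aspn, Gpc3 and Gpc6), and 4 of 15 higher and 1 lower (Ogn) in KO. Of 17 elastic fibre genes, 0 were higher and 4 lower in each set, and these were the same genes: Eln, the elastin gene; Fbn1, which encodes fibrillin 1; Fbln5, a fibulin needed for elastic fibre assembly; and Lox, the crosslinking lysyl oxidase.

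Of these elastic fibre genes Fbln5 had the largest fall in both sets. It stood at 185, 411 and 951 CPM in Adamts19-positive and 634, 1340 and 1992 CPM in negative WT members (-1.48, SE 0.11, edgeR adjusted p 3.73e-14), and at 369, 537 and 1231 CPM in LacZ-positive and 970, 1402 and 2751 CPM in negative KO members (-1.25, SE 0.16, edgeR adjusted p 2.75e-06). It was lower in 7 of 7 WT and 6 of 7 KO libraries, and the ranges overlapped in both sets. In KO members with no UMI of Acta2, Tagln, Myl9, Cnn1 or Myh11 its change was -0.09 (edgeR adjusted p 0.978). The WT change in such members, given below, was also small. Eln changed by -1.38 and -1.10. Cxcl12, the ligand of the chemokine receptor Cxcr4, stood at 20.6, 50.3 and 107 CPM in Adamts19-positive and 147, 238 and 589 CPM in negative WT members, without overlap (-2.23, SE 0.22, edgeR adjusted p 8.04e-11), and changed by -3.20 in KO.

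Smooth muscle genes fell in the same cells. Acta2 stood at 107, 226 and 251 CPM in Adamts19-positive and 523, 703 and 938 CPM in negative WT members, without overlap (-1.95, SE 0.12, edgeR adjusted p 6.28e-18). In KO it stood at 63.8, 79.3 and 531 CPM in LacZ-positive and 309, 846 and 983 CPM in negative members (-2.43, SE 0.24, edgeR adjusted p 2.18e-08). Tagln (-1.41 and -1.03), Cnn1 (-1.13 and -1.32) and Myl9 (-1.44 and -1.37) fell in both sets. The list of mural and smooth muscle markers does not hold all of these genes. Of its tested members, 3 of 7 were lower and 0 higher in WT, and 4 of 5 lower and 0 higher in KO. Other genes lower in both were Penk, the precursor of enkephalins (-2.29 and -1.67), Dlk1, a Notch ligand relative (-1.76 and -2.17), and Cdkn1c, a cyclin-dependent kinase inhibitor (-1.01 and -1.84).

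**Figure D4:**
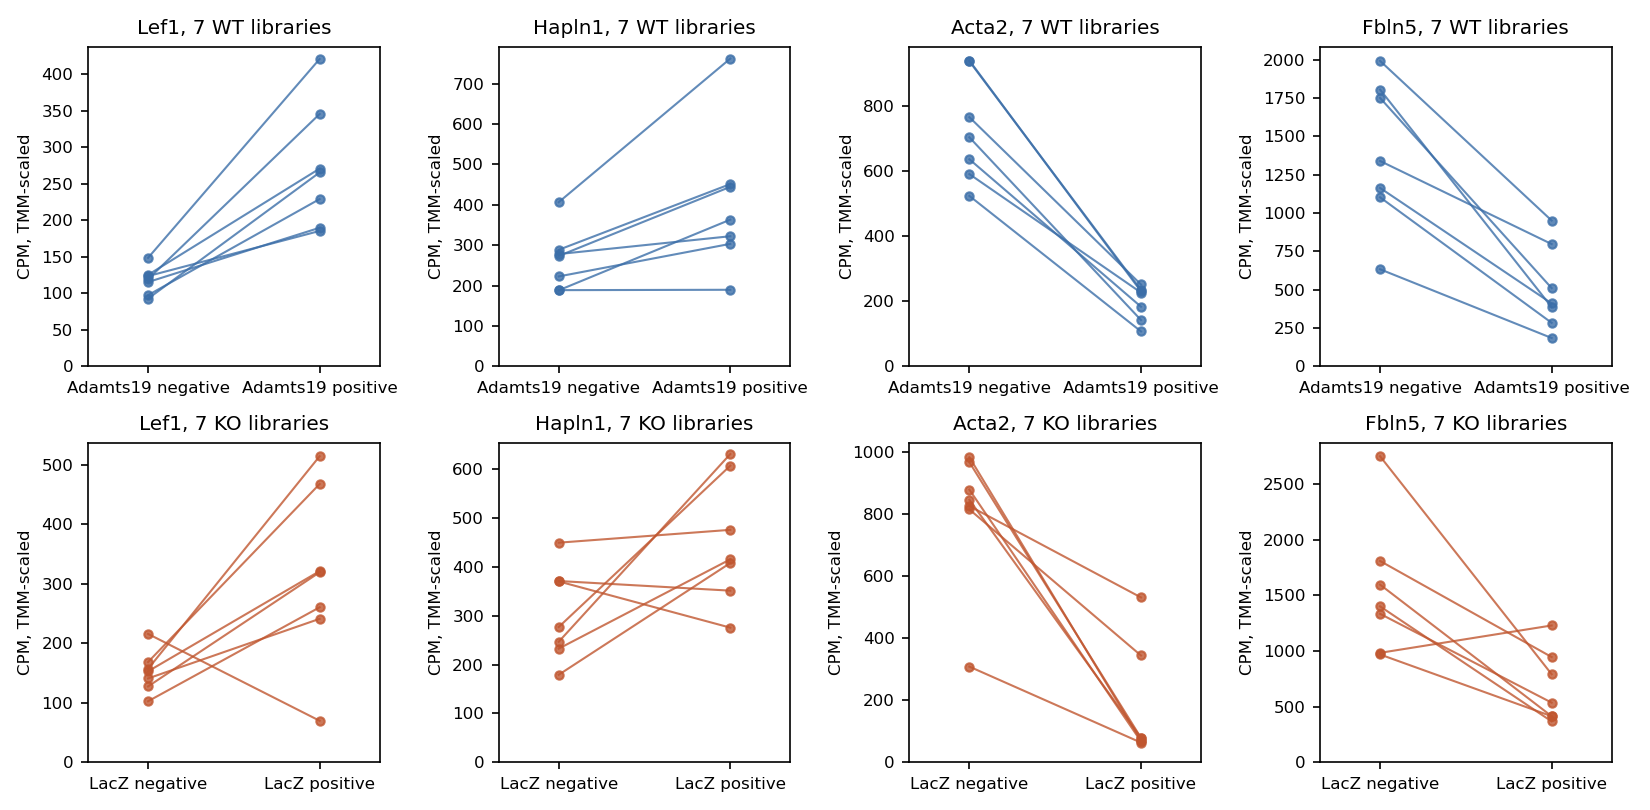
Lef1, Hapln1, Acta2 and Fbln5 in negative and positive members, 1 line per library, for Adamts19 in 7 WT libraries (top row) and LacZ in 7 KO libraries (bottom row); y axes are TMM-scaled CPM. Lef1 and Hapln1 lines rise in 7 of 7 WT libraries and Acta2 and Fbln5 lines fall in 7 of 7.

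Fewer genes were called when cells were thinned or restricted. With cells thinned to 1000 UMIs, 15 of 1565 genes were called in WT and 12 of 1444 in KO. Of the 150 WT calls 92 could be tested there and 89 kept their direction, among them Lef1 (1.10), Acta2 (-1.89) and Fbln5 (-1.04), which were called again. Thinned counts are drawn from the same cells and UMIs, so the kept directions are no separate evidence. Restricted to members with no UMI of the 5 smooth muscle genes (187 Adamts19-positive cells), 1 of 1993 genes was called in WT, Lef1 (1.18, edgeR adjusted p 0.00379), and 6 of 2136 in KO. The KO calls were Hapln1 as higher, and Cdkn1c and the haemoglobin genes Hba-a1, Hbb-bt, Hbb-bs and Hbb-y as lower. In these cells Fbln5 was at -0.13 and -0.09 in the WT and KO sets, and Hapln1 at 0.05 in WT and 0.74 in KO. In the KO set Lef1 was not called in either alternative (1.00 thinned, edgeR adjusted p 0.212, and 0.69 with no smooth muscle UMI, edgeR adjusted p 0.543). Both alternatives leave fewer positive cells (165 thinned in WT) and fewer genes tested, and these were not told apart from depth. The WT count was 86 without WT replicate 3, and the KO count 39, 34, 37 and 38 without KO replicates 5, 6, 7 and 8. Those KO replicates are the tm4b libraries, all of litter 7. Without each in turn, 6, 8, 15 and 13 genes were called as higher, against 33 in the full fit. Without KO replicates 1, 2 and 3, of tm4a, 37, 37 and 36 were called as higher. A difference between the alleles in this comparison was not tested.

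A joint fit of members with either UMI in all 15 libraries called 121 of 4470 genes (2.71%) as higher and 127 (2.84%) as lower. It holds the libraries of both sets and is no separate evidence. It added Twist1, Snai2 and Gata4 among the higher transcription factors and Notum and Axin2 among the higher Wnt genes. Of its elastic fibre genes, 6 of 17 were lower and 0 higher.

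Upstream sequence was available for part of the 47 shared genes. Windows of 250 bases before a RefSeq transcription start (build GRCm38.p6) were matched by symbol for 13 of the 20 higher genes and 18 of the 27 lower ones. Each was searched on both strands for the SOX core ACAATG, the E-box CATCTG and the CArG box, which serum response factor binds at smooth muscle genes. ACAATG was present in 10.7% of all 32851 windows, and in those of Lef1 and Wnt16 among the higher and of Cald1 and Cnn1 among the lower genes. CATCTG was present in 14.4% of all windows, and in those of Dpt, Egln3 and Wnt16 on the higher and of Cald1 and Sparc on the lower side. The CArG box was present in 1.47% of all windows. It was in 1 of 18 on the higher side (Lef1) and 1 of 20 on the lower side (Myl9). A match describes the letters of the window and shows no binding. The windows of Wnt16 and Myl9 are printed as 1 gene of each direction, with the match in capitals: ACAATG read on the reverse strand 221 bases before the start in Wnt16 (chr6:22287977-22288226, plus strand), and the CArG box 161 bases before the start in Myl9 (chr2:156775214-156775463, plus strand).
Wnt16: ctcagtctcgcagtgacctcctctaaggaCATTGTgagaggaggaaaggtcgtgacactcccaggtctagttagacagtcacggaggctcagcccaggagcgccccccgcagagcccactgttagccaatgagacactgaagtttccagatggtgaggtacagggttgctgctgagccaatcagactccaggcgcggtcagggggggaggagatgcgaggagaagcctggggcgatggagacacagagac
Myl9: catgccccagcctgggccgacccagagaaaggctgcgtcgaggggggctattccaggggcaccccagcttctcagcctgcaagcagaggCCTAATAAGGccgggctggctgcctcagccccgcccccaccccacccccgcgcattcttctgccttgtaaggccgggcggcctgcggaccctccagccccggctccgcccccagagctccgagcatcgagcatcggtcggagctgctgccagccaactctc

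Between genotypes, the members differed in few genes. None of the genes of the valve and fibroblast sums, Postn, Sox9 or the listed valve matrix genes was among them. Tnnc1 and Tnni1, genes of the cardiomyocyte gate, were called as lower in KO. By edgeR's quasi-likelihood test on UMIs summed per library, 21 of 8284 genes (0.254%) were called, 6 of them higher (0.0724%) and 15 lower (0.181%) in KO, with a median over all genes of -0.02. At an unadjusted p under 0.05 there were 1099 genes, and 23 genes (0.278%) had CPM ranges that did not overlap between the genotypes. Postn (log2 change 0.11, edgeR adjusted p 0.803), Sox9 (-0.03), Vcan (0.05), Hapln1 (0.24) and Lef1 (0.08) did not pass the test. Proteoglycans had 0 of 18 called, cartilage-type matrix 0 of 10, collagens 0 of 17, elastic fibres 0 of 19, valve transcription factors 0 of 30, Wnt genes 0 of 21 and other ADAMTS genes 0 of 9.

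Apart from LacZ, the genes higher in KO members were Leprel2, Blzf1, Pcna, Tra2a and Fblim1. Pcna, the sliding clamp of DNA polymerases, stood at 96.7, 131 and 202 in WT and 152, 241 and 293 CPM in KO libraries, normalised by TMM (0.80, SE 0.17, edgeR adjusted p 0.037). Its ranges overlapped. Fblim1, which encodes the filamin-binding adaptor migfilin, stood at 122, 144 and 187 in WT and 192, 250.2 and 279 CPM in KO, without overlap (0.70, SE 0.13, edgeR adjusted p 0.0228). Blzf1, which encodes golgin 45, was at 21.9, 34.9 and 41.0 against 41.5, 66.1 and 86.5 CPM, also without overlap (0.92, SE 0.19, edgeR adjusted p 0.037). Leprel2, a prolyl hydroxylase family gene that acts on collagens (0.93), and the splicing regulator Tra2a (0.75) had overlapping ranges. Of 20 measured genes of DNA replication, Pcna alone was called (median 0.22), and of 16 splicing factors Tra2a alone (median 0.17).

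Of the 15 genes lower in KO members, 7 were transcripts of heart muscle. Nppa, atrial natriuretic peptide, stood at 162, 237 and 399.7 in WT and 63.4, 104 and 202 CPM in KO libraries, with overlap (-1.10, SE 0.21, edgeR adjusted p 0.0228). Myh7, a myosin heavy chain, stood at 114, 258 and 345 in WT and 60.6, 103 and 151 CPM in KO, also with overlap (-1.21, SE 0.21, edgeR adjusted p 0.01). Mybpc3 (-1.43), Myl2 (-0.74) and Myl3 (-1.07) were called as well. Tnnc1, cardiac troponin C, stood at 226, 322 and 418 in WT and 143, 167 and 196 CPM in KO, without overlap. Tnnc1 and Tnni1 are genes of the gate that set members below 2% cardiomyocyte UMIs, so their levels are a description only. Of the 18 cardiomyocyte transcripts in the list, 6 were lower, these gate genes among them, and 0 higher (median -0.78).

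These muscle transcripts moved alike in fibroblasts. There, 6 of 19 were lower and 0 higher (median -0.81). Summed over 20 transcripts, they made up 3986 to 6987 CPM in WT and 3241 to 4868 CPM in KO members, and 6188 ± 1120 and 4405 ± 583 CPM in fibroblasts, with 0 of the 20 at 0 in members. Haemoglobin transcripts spanned 987 to 28474 CPM in WT and 642 to 6348 CPM in KO members, and 0 of 6 tested passed. The part of RNA from other cells in the changes between genotypes was not tested.

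Among the lower genes that are not typical of muscle, Tsc2, a subunit of the complex that inhibits mTOR signalling, stood at 26.5, 34.4 and 55.5 in WT and 4.72, 17.1 and 19.4 CPM in KO, without overlap (-1.12, SE 0.22, edgeR adjusted p 0.0278). Agrn, the basement membrane proteoglycan agrin, stood at 187, 246 and 380.5 in WT and 124, 156 and 208 CPM in KO (-0.75, SE 0.16, edgeR adjusted p 0.0387), with overlap. Gm10076 (-1.78), Sbk1 (-1.30), Gm1673 (-0.86), Lgals7, which encodes a galectin (-0.82), and the cytochrome oxidase subunit Cox5a (-0.61) completed the list.

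**Figure D5:**
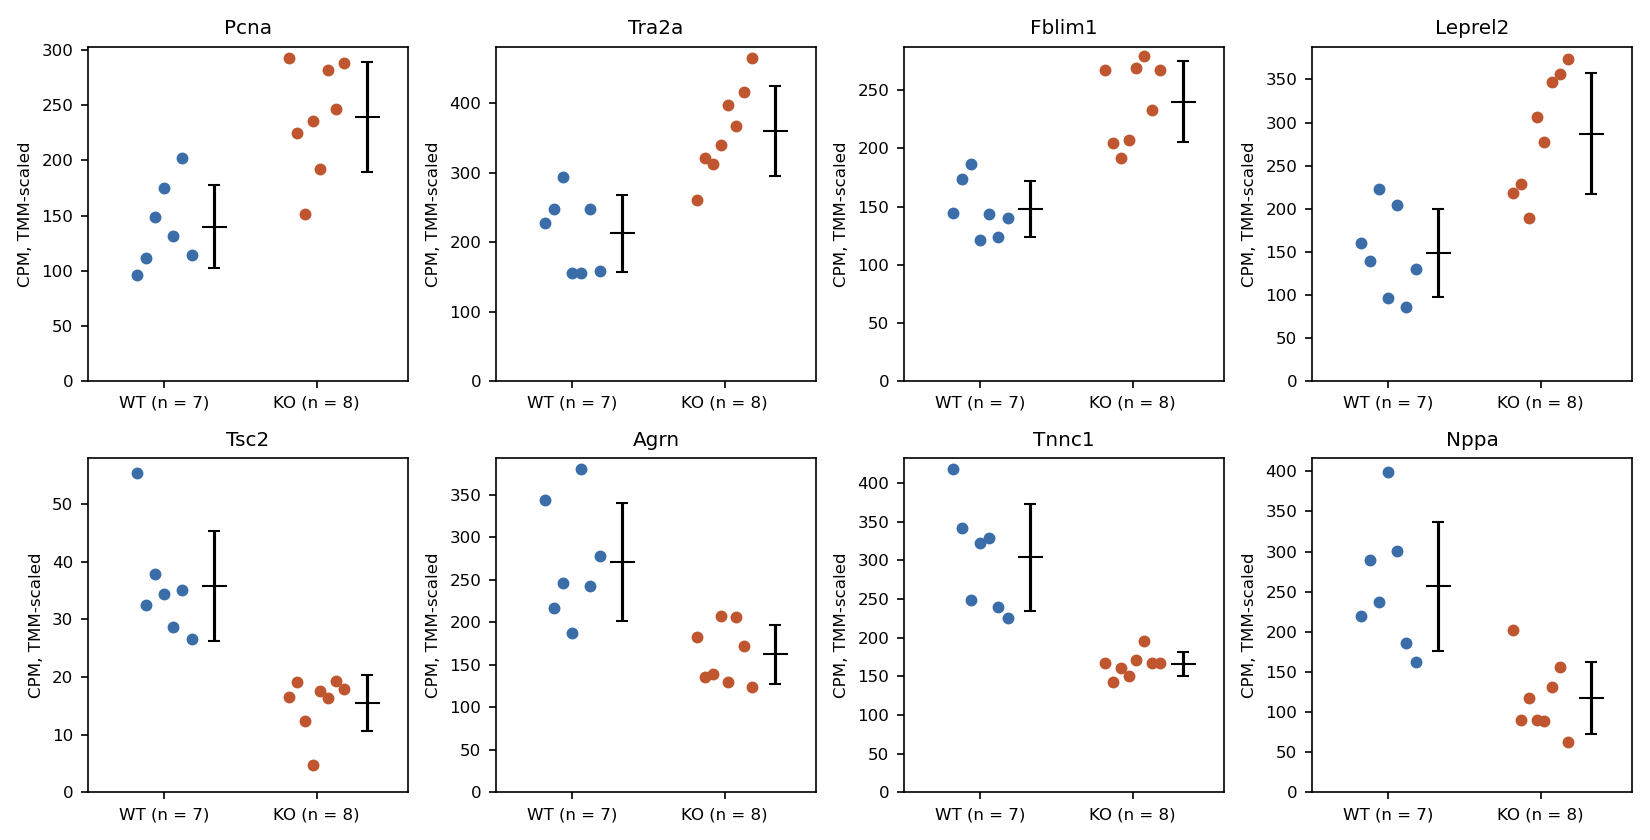
Level of 8 genes in member cells by library, as TMM-normalised CPM, for WT (n = 7) and KO (n = 8), with mean ± SD. Fblim1, Tsc2 and Tnnc1 separate the genotypes without overlap, and Pcna, Tra2a, Leprel2, Agrn and Nppa overlap.

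Genotype, litter and flow cell were confounded in this design. With flow cell as a covariate, which compares KO libraries with WT replicate 5 alone and takes the spread from all libraries, 5 genes were called, namely Adamts19, LacZ, Myh7 (-1.77), Myl3 (-1.78) and Gm7808, which was named after its value was seen. In that fit Pcna (0.87, edgeR adjusted p 0.477), Fblim1 (0.75), Tra2a (1.21) and Tsc2 (-0.79) kept their direction without passing. With UMIs summed per litter 3 genes were called, Adamts19, LacZ and Gm10076. The count was 85 without WT replicate 3, 9 without WT replicate 5, 11 without WT replicate 7, and 7, 6, 8 and 6 without KO replicates 2, 5, 7 and 8. Besides Adamts19 and LacZ, only Gm10076, Mybpc3, Myh7 and Tnnc1 were called in all 15 fits that left out 1 library.

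Fibroblasts of the same libraries gave a like list. There 28 of 9677 genes (0.289%) were called, 10 of them also among the 21 of the members with the same direction. Of the 21, 19 were tested in fibroblasts and 19 had the same direction, for example Pcna (0.73), Tra2a (0.66), Fblim1 (0.39), Agrn (-0.68) and Nppa (-1.38). Both classes share the libraries, so this agreement is not independent of a library-wide shift. The difference of the genotype effect between members and fibroblasts was called for 1 of 9358 genes (0.0107%), Eln. Its change was 0.06 in members and -0.89 in fibroblasts, a difference of 1.00 (SE 0.17, edgeR adjusted p 0.0085), though neither change passed on its own (edgeR adjusted p 0.948 and 0.218). At an unadjusted p under 0.05, which chance gives to about 1 gene in 20, this difference had 544 of the 9358 genes. DESeq2 called 0, and edgeR called 0 without KO replicate 8 or without WT replicate 3. It called 3 without KO replicate 1 or WT replicate 1, and 2 without KO replicate 3.

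Between the alleles, 0 of 8965 genes (0.0%) passed edgeR's test for tm4b against tm4a members, with 1124 genes at an unadjusted p under 0.05 and 20 called by DESeq2. The smallest p-values belonged to Smoc2, Cdh11, Cxcl12, Nr3c1 and Kpna4, each with an edgeR adjusted p of 0.191. In an edgeR fit on the KO libraries alone 192 genes were called, these 5 among them, with adjusted p from 0.00578 (Cdh11) to 0.0215 (Kpna4). Cdh11, a mesenchymal cadherin, stood at 292 ± 25.9 CPM in tm4a and 527 ± 50.8 CPM in tm4b members (SD, n = 4 and 4; log2 difference 0.85), and Cxcl12 at 131 ± 114 and 495 ± 162 CPM (1.88). Against WT, tm4a members had 3 genes called (0.0335%) and tm4b members 39 (0.435%), comparisons that share their WT libraries. Without KO replicate 3 the difference between alleles had 1 call. Each allele came from litters of its own, so allele and litter cannot be told apart.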

How the data were processed

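The deposited table holds raw UMI counts of 16809 genes in 55152 barcodes from 15 libraries, as the authors made them; the counter and annotation are not stated in the labels. The submitters' processing notes name bcl2fastq 2.17, Seurat 2.1 and mm10 without a role. Every column matched a library title (0 did not); the description of WT replicate 4 carries another replicate number, and titles were used. Member cells and gene lists were chosen with earlier results of these data known.

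Counts were summed per library and class and tested with edgeR 4.0.16 (quasi-likelihood, TMM, filterByExpr, Benjamini-Hochberg adjusted p under 0.05) in R 4.3.3, with limma 3.58.1. Positive and negative members were compared with library as a block and at least 5 positive cells per library. CPM are counts scaled to the same total in each class and library. Valve and fibroblast levels were compared as log2(CPM + 10). Shares were compared by exact permutation over libraries (Python 3.11.15, numpy 2.4.6, scipy 1.17.1, pandas 2.3.3, matplotlib 3.10.9). No doublet caller was run. The gates remove only barcodes at or above their limits for cardiomyocyte, endothelial and C1q UMIs. Members could still hold UMIs of other classes, and 1345 of them had a UMI of the fibroblast genes. An alternative left out the deepest 5% of members. The edgeR function was also run on simulated counts with known changes, and the other steps were not simulated.

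Alternatives were DESeq2 1.42.0, no low-count filter, a valve sum of at least 3, no fibroblast UMI, 500 genes per cell, thinning to 1000 UMIs, pseudocounts of 1 and 50 CPM, flow cell, litter, a replicate block, and leaving out each library. A further 3 were chosen after seeing the data: leaving out WT replicates 1 to 4, leaving out KO replicate 8 without a block, and members with no smooth muscle UMI. Named genes are the rule and marker genes, the 20 highest and 10 lowest genes against fibroblasts (at least 50 CPM), up to 15 called genes per direction of each test (the 5 with the smallest p where fewer than 3 were called), and in each list the 3 most abundant and all called members. A result that names a withheld item is not reported here.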

Additional observations from a re-analysis of the deposited data

Results flagged for a closer look

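Tsc2 stood at 55.5 CPM (TMM) in the members of WT replicate 1, apart from the other WT libraries at 26.5 to 37.8 CPM. Its gap to the nearest library exceeded the critical value for its group; 61 such tests were made, and chance gives about 1 in 20.

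The genotype effect on Eln differed between members and fibroblasts by 1.00 on the log2 scale (edgeR adjusted p 0.0085), with neither effect called on its own.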

How the results depend on the processing

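The count of genes called between KO and WT members, 21, was 73 with DESeq2, 33 without a low-count filter, 13 in members with no smooth muscle UMI, 5 with flow cell as a covariate, 3 with UMIs summed per litter, and 310 without WT replicates 1 to 4. Leaving out 1 library gave 6 to 85. Same-numbered WT and KO libraries had correlations of -0.26 to 0.08, with 0 of 7 above 0.1 and 0 WT libraries best matched by their own number, so the numbers do not pair them; the replicate block gave 3 calls, against 6 without it on the same libraries. Adamts19 stayed called in all these fits, at -1.75 to -2.05, and at -1.75 under the replicate block. The genotype difference between members and fibroblasts had 0 calls with DESeq2, 4 at a valve sum of at least 3, 0 without the deepest 5% of members, 47 without a filter, and 0 to 3 without 1 library. Between alleles there were 20 calls with DESeq2, 8 without a filter, 192 in KO libraries alone, and 0 to 1 without 1 library.

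Adamts19-positive against negative members gave 76 calls with DESeq2, 87 at a valve sum of at least 3, 230 without a filter, 15 thinned, 1 with no smooth muscle UMI, and 86 to 147 without 1 library. LacZ-positive members gave 29, 46, 155, 12 and 6 in that order, and 34 to 90 without 1 library. The joint fit gave 161 at a valve sum of at least 3, 473 without a filter and 42 thinned. Against fibroblasts, 613 genes were counted with a pseudocount of 1 CPM and 134 with 50 CPM. Directions reversed for Hbb-y when thinned (-0.65) and, with no smooth muscle UMI, for Clu (-0.25), Cst3 (0.047) and Tpm2 (0.051) in the WT set and for Cst3 (0.053) and Dpt (-0.031) in the KO set. The share of members differed by -0.87 to 0.29 points without 1 library, reversing without WT replicate 5 (0.29) and KO replicate 4 (0.083). The causes were not tested. Among 19 named genes between genotypes, 160 of 285 values without 1 library kept their call and 0 reversed. Members per library, 111 to 421, limit what the smaller comparisons can detect.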
